A study of Mus musculus with 6 samples.

Results

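The mitochondrial ribosomal protein genes are the nuclear genes for the protein part of the ribosome that works inside mitochondria. They were taken as the gene symbols that begin with Mrps (small subunit) or Mrpl (large subunit) followed by a number, with 4 pseudogene symbols left out. This gave 76 of the 22219 genes measured, 29 for the small and 47 for the large subunit, and all 76 passed the filter on low counts. The rule used symbols only and no measured value.

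Mitochondria translate the few membrane proteins that their own genome encodes, all of them parts of the respiratory chain and the ATP synthase, on ribosomes of their own. The rRNAs of these ribosomes come from the mitochondrial genome, whereas the proteins are encoded in the nucleus, made in the cytosol and imported. Many of the proteins descend from bacterial ribosomal proteins, and others are found only in mitochondria. The subunits are built by dedicated assembly factors and used by mitochondrial initiation, elongation and release factors. Symbols do not always give the place of a protein: in structures of the mammalian ribosome the products of Mrps18a and Mrps30 sit in the large subunit, and that of Mrps36 is known as a component of the oxoglutarate dehydrogenase complex.

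RNA of whole testes from mice on day 10 was sequenced in 6 libraries, 3 labelled control and 3 labelled cKO. Here cKO stands for a conditional knockout of Eif5. Eif5 encodes a translation initiation factor of the cytosol. The cKO mice came from a cross of Eif5fl/fl mice with Stra8-Cre mice, whose Cre is driven by the promoter of Stra8 and acts in germ cells, so the somatic cells of the testis keep the gene. The labels do not state the genotype of the controls, so any effect of Cre or of a floxed allele cannot be told apart from that of losing Eif5. Nor do they say whether replicate libraries are from different mice, so p-values measure the spread between these libraries alone, and that spread may be technical.

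The libraries held 32555443 to 48409550 reads, and no mitoribosomal gene had fewer than 243 reads in any library. Values are normalised read counts, that is reads divided by 1 size factor per library. Fold changes compare cKO with control as log2(value + 2), with a standard error (SE) and limma's p adjusted by the Benjamini-Hochberg method over the 17570 genes tested. A gene was called higher or lower at an adjusted p under 0.05. Eif5 had 11964, 10551 and 11187 normalised counts in control replicates 1 to 3 and 8548, 8982 and 9574 in the cKO replicates. All cKO libraries were below all controls, and Eif5 was called lower (log2 fold change -0.31, SE 0.0947, adjusted p = 0.024), though not after cKO replicate 1 (adjusted p = 0.13) or 2 (adjusted p = 0.0875) was left out.

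The cell types of the organ differed between the groups in their marker genes. Of 17 markers of differentiating and meiotic germ cells 16 were called lower (median log2 change -1.42), and their summed counts were 43403 to 48408 in control and 20053 to 20761 in cKO libraries. Of 6 markers of all germ cells 4 were lower. Of 12 markers of undifferentiated spermatogonia 5 were called higher, but 4 had a fold change below 0. Of these 4, 2 had an unadjusted limma p under 0.05, and edgeR and DESeq2 each called 1 marker of this list lower. Of 18 Sertoli cell markers 9 were higher and 1 lower (summed counts 383220 to 541683 in control and 592790 to 676956 in cKO), 7 of 8 Leydig cell markers and 6 of 8 macrophage markers were higher, and 2 of 6 peritubular myoid markers were lower. Of 6 endothelial markers 1 was higher and 1 lower, and of 6 erythroid markers 2 were higher. The erythroid calls came with cKO replicate 1, which stood apart: Hbb-bs had 2564, 2659 and 2066 counts in control and 6901, 2816 and 2822 in cKO libraries, and Hba-a1 had 1068, 1194 and 946 against 3248, 1650 and 1132. Without cKO replicate 1 limma called 0 of the 6 erythroid markers (1 at an unadjusted p under 0.05), and 0 too without control replicate 3 (3 at an unadjusted p under 0.05). The macrophage count went from 6 to 0 without cKO replicate 1 or 2 (5 and 7 at an unadjusted p under 0.05) and to 1 without control replicate 1 or 2. The myoid count went from 2 to 0 without cKO replicate 1 or 2 (2 each at an unadjusted p under 0.05). The count of higher markers of undifferentiated spermatogonia went from 5 to 3 without cKO replicate 1, cKO replicate 3 or control replicate 3. In that list limma also called 2 lower without control replicate 3 and 1 lower without cKO replicate 2. Among the mitoribosomal genes 3 were called without cKO replicate 1, all lower (Mrpl47, Mrpl38 and Mrpl18). No marker was at 0 in all libraries. The part of these shifts in the results on the mitoribosomal genes was not tested, and in whole tissue fewer cells of a type and less RNA per cell cannot be told apart.

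Most mitoribosomal genes differed little between the groups. In the large subunit 6 of 47 genes fell (Mrpl47, Mrpl18, Mrpl28, Mrpl38, Mrpl40 and Mrpl51) and none was called higher. In the small subunit 1 of 29 genes rose (Mrps34) and none was called lower. Among all genes tested limma called 20.0%, with 9.63% higher and 10.4% lower, against 9.21% of the 76 members (3.45% of the small and 12.8% of the large subunit). Limma's unadjusted p was under 0.05 for 4 small-subunit genes in the lower and 1 large-subunit gene in the higher direction. edgeR and DESeq2 on the recovered reads each called the same 7 members in the same directions.

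The changes that did occur were small. The median log2 fold change was -0.06 for the small and -0.03 for the large subunit, against 0.01 over all genes tested, and members ran from -0.45 to 0.44. Of the 76 genes 65 differed by less than 1.2-fold, and for 73 the whole 95% confidence interval lay within a 1.5-fold change, the exceptions being Mrps34, Mrpl47 and Mrpl18. The median SE of a member was 0.104. In 54 genes the cKO mean was below the control mean on this scale and in 22 above. Over all genes tested it was below in 8641 and above in 8929. The 3 cKO libraries did not overlap the 3 controls in 27.6% of the members (15 lower and 6 higher). Over all genes tested this share was 36.7% (3226 lower and 3216 higher).

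**Figure D1:**
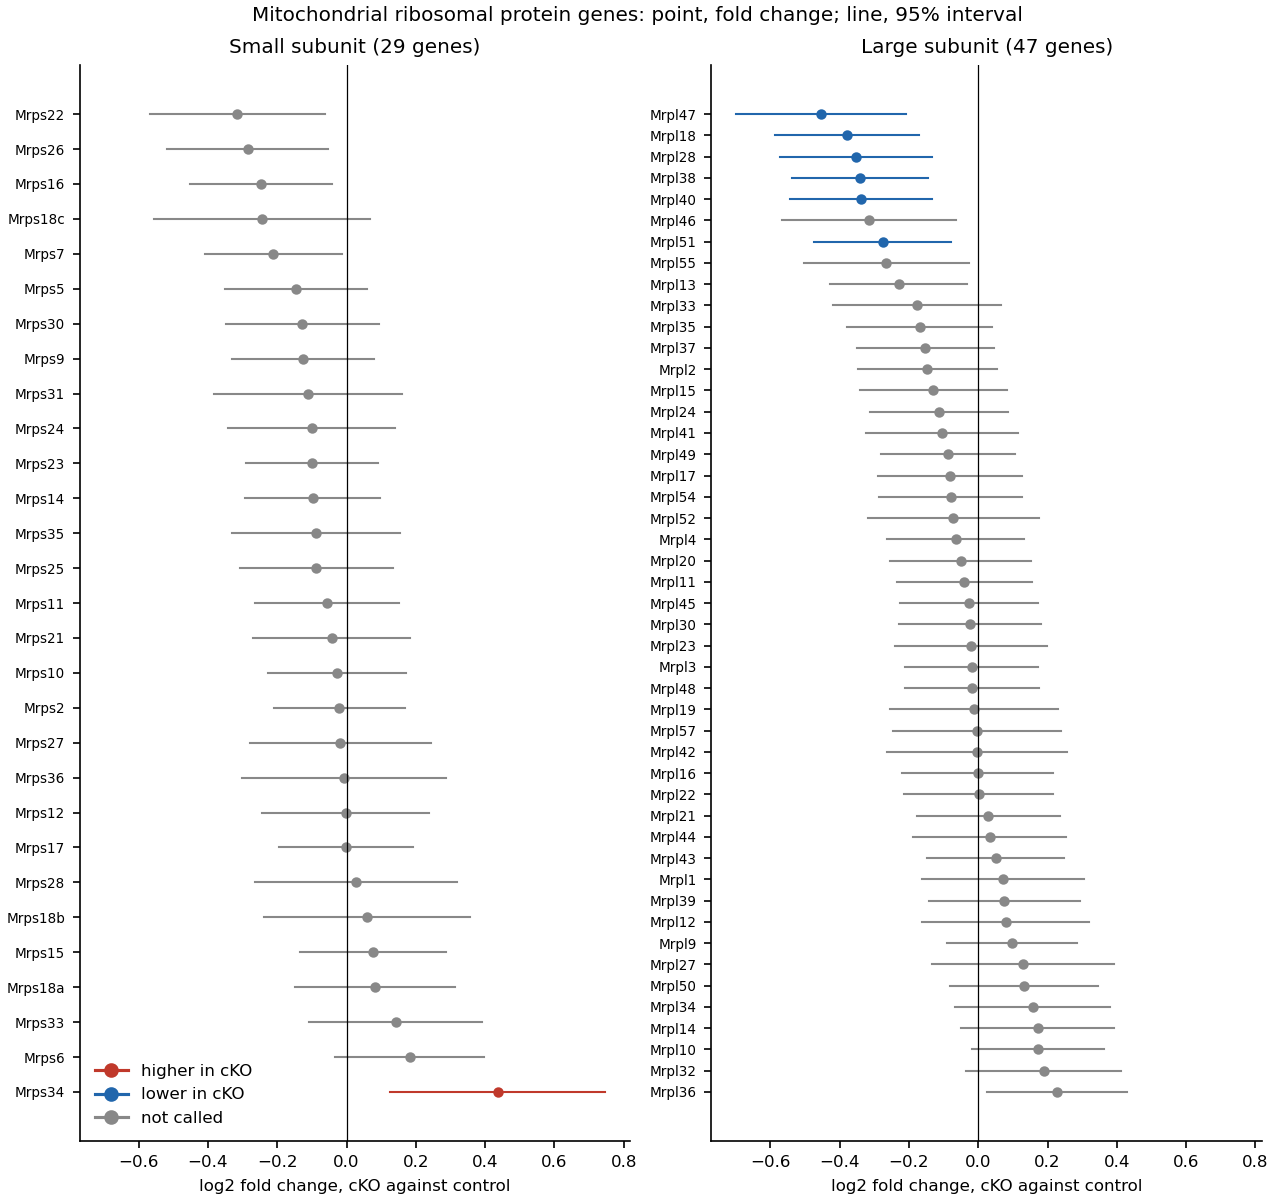
Log2 fold change of each of the 29 small-subunit and 47 large-subunit genes, cKO against control, with 3 libraries per group. Points are fold changes and lines 95% confidence intervals; blue marks the 6 genes called lower, red the 1 called higher and grey the rest, most of whose intervals span 0.

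The promoters of 4 of the 6 genes that fell are shown so that the regulatory sequence can be read beside the values. For Mrpl47, Mrpl18, Mrpl28 and Mrpl51 the 250 bases before the annotated start are printed 5′ to 3′ on the gene's strand, from RefSeq on GRCm38.p6, at chr3:32736756-32737005 (minus strand), chr17:12916092-12916341 (minus), chr17:26123253-26123502 (plus) and chr6:125191950-125192199 (plus). Capitals mark matches to 4 motifs searched on both strands: GCGCATGC (NRF1), CCGGAAGT (ETS factors such as GABP), AAGATGGC (YY1) and GGGCGG (SP1).
Mrpl47: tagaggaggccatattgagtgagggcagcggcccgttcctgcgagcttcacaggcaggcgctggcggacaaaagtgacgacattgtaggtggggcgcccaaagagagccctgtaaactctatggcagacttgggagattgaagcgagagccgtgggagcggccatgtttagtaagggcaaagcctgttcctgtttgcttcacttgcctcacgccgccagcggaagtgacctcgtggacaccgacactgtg
Mrpl18: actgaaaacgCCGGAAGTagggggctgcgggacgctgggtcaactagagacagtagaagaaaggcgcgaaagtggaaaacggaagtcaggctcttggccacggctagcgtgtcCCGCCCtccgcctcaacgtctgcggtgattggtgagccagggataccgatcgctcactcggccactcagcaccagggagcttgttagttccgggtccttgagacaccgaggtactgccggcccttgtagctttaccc
Mrpl28: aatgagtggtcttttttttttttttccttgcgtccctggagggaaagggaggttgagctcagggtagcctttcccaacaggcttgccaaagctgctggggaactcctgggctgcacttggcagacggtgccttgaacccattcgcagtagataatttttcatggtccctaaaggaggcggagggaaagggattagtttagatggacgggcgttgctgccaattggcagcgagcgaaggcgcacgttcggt
Mrpl51: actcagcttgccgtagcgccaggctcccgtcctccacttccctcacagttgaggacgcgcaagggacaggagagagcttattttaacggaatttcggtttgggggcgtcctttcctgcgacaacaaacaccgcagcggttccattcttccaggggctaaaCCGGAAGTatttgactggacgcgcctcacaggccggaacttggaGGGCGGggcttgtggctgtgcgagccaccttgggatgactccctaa
Mrpl18 had an ETS match starting 240 bases and an SP1 match in reverse complement starting 137 bases before the start. The gene Tcp1 starts 238 bases away on the other strand, where this ETS match lies. The far end of the Mrpl18 window thus reaches into the transcript of Tcp1. In Mrpl51 an ETS match began 90 and an SP1 match 46 bases before the start. Mrpl47 and Mrpl28 had no match in these windows. Of the other 2 fallen genes, Mrpl38 had no promoter entry. Mrpl40 is not printed because much of its window lies in the transcript of Hira, which starts 113 bases away. The promoter of Mrpl40 held an SP1 match and none of the other motifs. A match is a description of the letters and not evidence of binding.

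Mrpl47 encodes a large-subunit protein related to a bacterial ribosomal protein at the mouth of the exit tunnel. Its counts were 1031, 910 and 1041 in control and 812, 637 and 734 in cKO libraries. Every cKO library lay below every control. The means were 994 ± 72.9 (SD, n = 3) and 728 ± 87.9 (SD, n = 3). The log2 fold change of -0.45 (SE 0.118, 95% interval -0.70 to -0.21, adjusted p = 0.00971) was the lowest of the 76 members. The call was lost without cKO replicate 2 (log2 fold change -0.36, adjusted p = 0.0763).

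Mrpl18 encodes a protein of the central protuberance, the knob of the large subunit that faces the small one. It had 1405, 1328 and 1512 counts in control and 1076, 1095 and 1089 in cKO libraries. The cKO values lay close together and below all controls. Its log2 fold change was -0.38 (SE 0.100, adjusted p = 0.0109). It was the only called member that held under all 16 alternative settings and left-out libraries (log2 fold change -0.73 to -0.33). Among the 16 are the scalings to library totals and to Sertoli markers, described below, which moved all genes down.

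Mrpl38 and Mrpl40 encode mitochondria-specific proteins of the same protuberance. Mrpl38 had 2763, 2962 and 2655 counts in control and 2327, 2265 and 2026 in cKO libraries. Mrpl40 had 1409, 1327 and 1337 in control and 1078, 1085 and 1054 in cKO. Neither gene's groups overlapped, and the Mrpl40 values varied little within each group. Mrpl38 fell by 0.34 on the log2 scale (SE 0.0946, adjusted p = 0.0146). Mrpl40 also fell by 0.34 (SE 0.0985, adjusted p = 0.0193). The call on Mrpl38 was lost without control replicate 2 (adjusted p = 0.0507) and cKO replicate 3 (adjusted p = 0.0974). That on Mrpl40 was lost without cKO replicate 1 (adjusted p = 0.0624), 2 (adjusted p = 0.0635) or 3 (adjusted p = 0.0702).

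Mrpl28, related to a bacterial large-subunit protein, had 2558, 2875 and 2171 counts in control and 1969, 2090 and 1857 in cKO libraries. The controls were spread widely, and the lowest of them was just above the highest cKO library. Its log2 fold change was -0.35 (SE 0.105, adjusted p = 0.0222), and the call was lost without control replicate 2 (log2 fold change -0.26, adjusted p = 0.105), cKO replicate 1 (adjusted p = 0.0659) or cKO replicate 3 (adjusted p = 0.0968). Mrpl51, for a mitochondria-specific protein, had 2631, 3077 and 2956 counts in control and 2322, 2285 and 2540 in cKO libraries. The groups did not overlap, with control replicate 1 close to cKO replicate 3. Its log2 fold change was -0.28 (SE 0.0952, adjusted p = 0.0455), the weakest of the 6 calls, and the call was lost under 9 of 16 alternatives, including the replicate block (adjusted p = 0.0535) and the leaving out of control replicate 2 (adjusted p = 0.133), control replicate 3 (adjusted p = 0.0906) and cKO replicates 1 (adjusted p = 0.145), 2 (adjusted p = 0.173) and 3 (adjusted p = 0.0617).

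Mrps34, the one member that rose, encodes a mitochondria-specific small-subunit protein needed for a stable subunit and mutated in a form of Leigh syndrome. It had 287, 365 and 409 counts in control and 475, 521 and 430 in cKO libraries, among the lowest levels in the family. The highest control stood just under the lowest cKO library. Its log2 fold change was 0.44 (SE 0.149, 95% interval 0.13 to 0.75, adjusted p = 0.0439). The call was lost without control replicate 1 (log2 fold change 0.29, adjusted p = 0.179), control replicate 2 (adjusted p = 0.0626), cKO replicate 1 (adjusted p = 0.104) or cKO replicate 2 (adjusted p = 0.17). Exons of Mrps34 overlap those of Nme3 on the same strand and of Mapk8ip3 on the other in GENCODE M21. Nme3 is not among the genes measured, so no value of it can be set beside Mrps34. Mapk8ip3 fell (log2 fold change -0.35, adjusted p = 0.0158). The strand setting of the counting is not given in the sources used here, so reads of such partners cannot be told apart. Reads of a partner on the same strand could not be told apart by strand in any case.

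**Figure D2:**
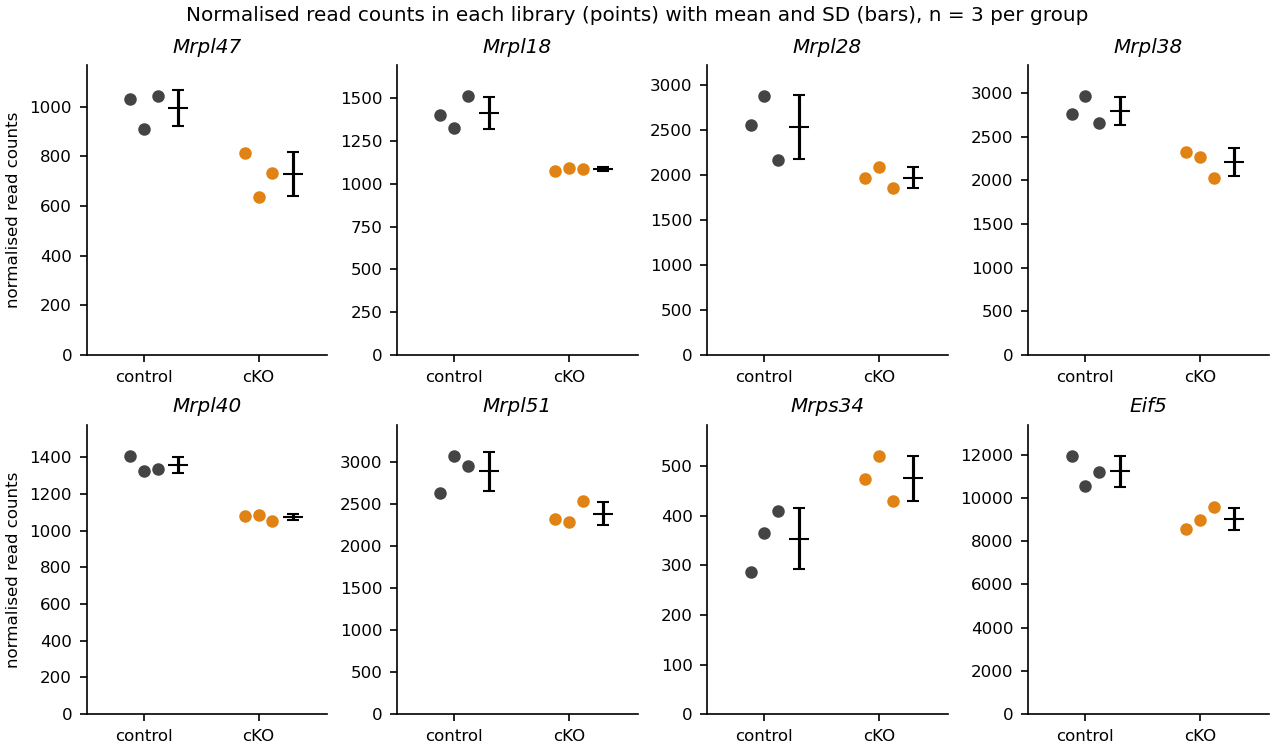
Normalised read counts of the 7 called mitoribosomal genes and of Eif5 in each library (points, replicates 1 to 3 from left to right), with mean and SD beside them and axes from 0. In each panel the 3 cKO libraries lie on one side of the 3 controls, below them in all panels but that of Mrps34.

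Several genes came close to the threshold without passing it, and those with the largest absolute fold changes in each subunit are given first. Mrpl46, for another protuberance protein, had 1352, 1579 and 1155 counts in control and 1143, 1174 and 950 in cKO libraries, which overlap. Its log2 fold change was -0.32 (adjusted p = 0.0682), and it was called lower without control replicate 3 (adjusted p = 0.0198) and with the replicate block (adjusted p = 0.0399). Mrpl55 had a log2 fold change of -0.27 (adjusted p = 0.106) and was called lower without control replicate 1 (adjusted p = 0.0141). In the small subunit, Mrps22, whose human counterpart is mutated in mitochondrial disease, had 1172, 858 and 1027 counts in control and 757, 874 and 809 in cKO libraries. Its log2 fold change was -0.32 (adjusted p = 0.0706) and the lowest of the subunit, and it was called lower without control replicate 2 (adjusted p = 0.0199). Mrps26 did not overlap between the groups and had a log2 fold change of -0.29 (adjusted p = 0.0762). Mrps16 (log2 fold change -0.25, adjusted p = 0.0827) and Mrpl13 (-0.23, adjusted p = 0.0933) were also near it on the lower side. On the higher side Mrpl36 was near it (0.23, adjusted p = 0.105). The groups did not overlap in any of these.

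The central protuberance holds the products of Mrpl18, Mrpl27, Mrpl38, Mrpl40, Mrpl46, Mrpl48, Mrpl55 and Ict1, the older symbol of Mrpl58. This list was drawn up after the values were seen, so its counts support nothing. Of the 8 genes 3 fell (37.5%, against 10.4% of all genes tested). A fold change below 0 was found in 6, against 8641 of all 17570 genes tested. The median was -0.29, against 0.01 over all genes tested. The 5 that were not called had log2 fold changes of -0.32 for Mrpl46, -0.27 for Mrpl55, -0.02 for Mrpl48, 0.09 for Ict1 and 0.13 for Mrpl27.

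By origin, the called genes were divided between proteins related to bacterial ones and mitochondria-specific ones. Over all genes tested 10.4% were called lower and 9.63% higher. Of 30 large-subunit genes with a bacterial counterpart 3 fell (10%, median log2 fold change -0.02), and of 17 mitochondria-specific ones 3 fell (17.6%, median -0.07). Of 17 small-subunit genes with a bacterial counterpart limma called none (2 at an unadjusted p under 0.05; none by edgeR or DESeq2; median -0.04). Of 11 mitochondria-specific ones 1 rose (9.09%, median -0.09). The large subunit was also split by the number in the symbol alone, up to 36 or above. This puts Mrpl47 and Mrpl55 with the second class. Then 2 of 28 (7.14%) and 4 of 19 (21.1%) genes fell. Differences between the classes were not tested.

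Genes with a known special role among the ribosomal proteins mostly differed little. Mrps12, for a protein at the decoding centre, had a log2 fold change of -0.00, with 1483, 2125 and 1711 counts in control and 1872, 1770 and 1616 in cKO libraries, so that the widest spread was among the controls. Mrpl12, whose product forms the stalk that contacts translation factors, was at 0.08. Mrpl45, whose product anchors the ribosome to the inner membrane, was at -0.03. Mrpl44, with a fold like that of RNase III, was at 0.03, Mrps27, a pentatricopeptide repeat protein, at -0.02, and Mrps36 at -0.01. The 3 relatives Mrps18a, Mrps18b and Mrps18c went from 1472 ± 165 to 1558 ± 191, from 547 ± 57.1 to 575 ± 106 and from 368 ± 46.2 to 309 ± 31.3 counts (mean ± SD, n = 3 each). Their log2 fold changes were 0.08, 0.06 and -0.24, and none was called (the lowest adjusted p was 0.27, for Mrps18c).

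Levels within the family spread over a far wider range than any difference between the groups. Per kb of transcript (the median length of a gene's coding transcripts in GENCODE M21, since the isoforms used are not known), the means over all libraries ran from 168 normalised counts per kb for Mrpl19 to 6016 for Mrpl52, a 35.9-fold range. In the large subunit Mrpl52 was followed by Mrpl42 (3951) and Mrpl20 (3641), and in the small subunit the highest were Mrps21 (4498), Mrps23 (3253) and Mrps17 (3048) and the lowest Mrps25 (198). The median was 987 per kb for the small and 1542 for the large subunit. Unscaled by length, the means ran only from 339 to 2809 counts. Much of the range per kb thus comes from the assumed lengths, 5000 bases for Mrpl19 and 418 for Mrpl52. The median member had 1504 unscaled counts, against 694 over all genes tested. Log2 fold changes of the most abundant genes per kb were -0.07 for Mrpl52, -0.00 for Mrpl42, -0.05 for Mrpl20, -0.04 for Mrps21, -0.10 for Mrps23 and -0.00 for Mrps17, none of them called. Mrpl52 had 2149, 3239 and 2400 counts in control and 2410, 2333 and 2557 in cKO libraries, with control replicate 2 alone standing high.

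Summed over the family, the genes took 0.331%, 0.344% and 0.319% of all normalised counts in control and 0.301%, 0.302% and 0.290% in cKO libraries. The groups did not overlap in this share, which depends on all other genes in its denominator. Without that denominator the sums came closer. Small-subunit sums were 40534, 42861 and 42969 counts in control and 41503, 39877 and 39215 in cKO libraries, which overlap. Large-subunit sums were 78030, 83142 and 80217 against 78083, 76486 and 75062, which overlap by the lowest control and the highest cKO library. The ratio of large to small sums was 1.93, 1.94 and 1.87 in control and 1.88, 1.92 and 1.91 in cKO, and overlapped between the groups. Control replicate 2 held the highest value of the 6 libraries for 26 of the 76 genes, and cKO replicate 3 the lowest for 24.

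Many mitoribosomal genes share a promoter region with a neighbour on the other strand. Another gene started on the opposite strand within 1000 bases for 26 of the 67 members with a RefSeq promoter entry (38.8%), against 12.2% of 27026 genes. Of these 26 members 4 fell (15.4%: Mrpl47, Mrpl18, Mrpl40 and Mrpl51), with a median of -0.10. Of the 41 without such a neighbour 1 fell (2.44%), with a median of -0.02. The 26 neighbours, all tested, held 10 genes called lower and 1 called higher, with a median of -0.18. Over all genes tested 10.4% were called lower and 9.63% higher, with a median of 0.01. The neighbours and members named in what follows were chosen after their values were seen, and differences within pairs were not tested.

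In 1 pair both genes were called in the same direction: Mrpl51 and Ncapd2, a condensin subunit, whose counts were 6709, 6875 and 5482 in control and 5088, 4637 and 4224 in cKO libraries (log2 fold change -0.45, adjusted p = 0.00462). In 9 pairs the neighbour was lower and the mitoribosomal gene was not called. Ska3, a kinetochore gene 76 bases from Mrpl57, had 820, 708 and 723 counts in control and 442, 427 and 464 in cKO libraries. All cKO values of Ska3 were far below the controls (log2 fold change -0.75, adjusted p = 0.000206), whereas Mrpl57 was at -0.00. Eme1, for a subunit of a DNA repair nuclease, was at -0.66 beside Mrpl27 at 0.13. Helq, a DNA helicase, was at -0.51 beside Mrps18c, and Ighmbp2, another helicase, at -0.48 beside Mrpl21 at 0.03.

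The other fallen members had neighbours that were not called: Ndufb5, a respiratory complex I subunit, at 0.00 beside Mrpl47, the histone chaperone Hira at -0.04 beside Mrpl40, and the chaperonin subunit Tcp1 at -0.18 (adjusted p = 0.172) beside Mrpl18. Mrpl46 and Mrps11 start 42 bases apart and had log2 fold changes of -0.32 and -0.06. In GENCODE M21 exons of Mrpl47 overlap Actl6a and Ndufb5, and those of Mrpl18 overlap Tcp1, on the opposite strand. In all, 26 members had such an overlap, 7 one on the same strand (Mrpl51 with Mir3098), and 6, none of them called, a near-identical copy elsewhere. Their counts are uncertain to that extent.

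**Figure D3:**
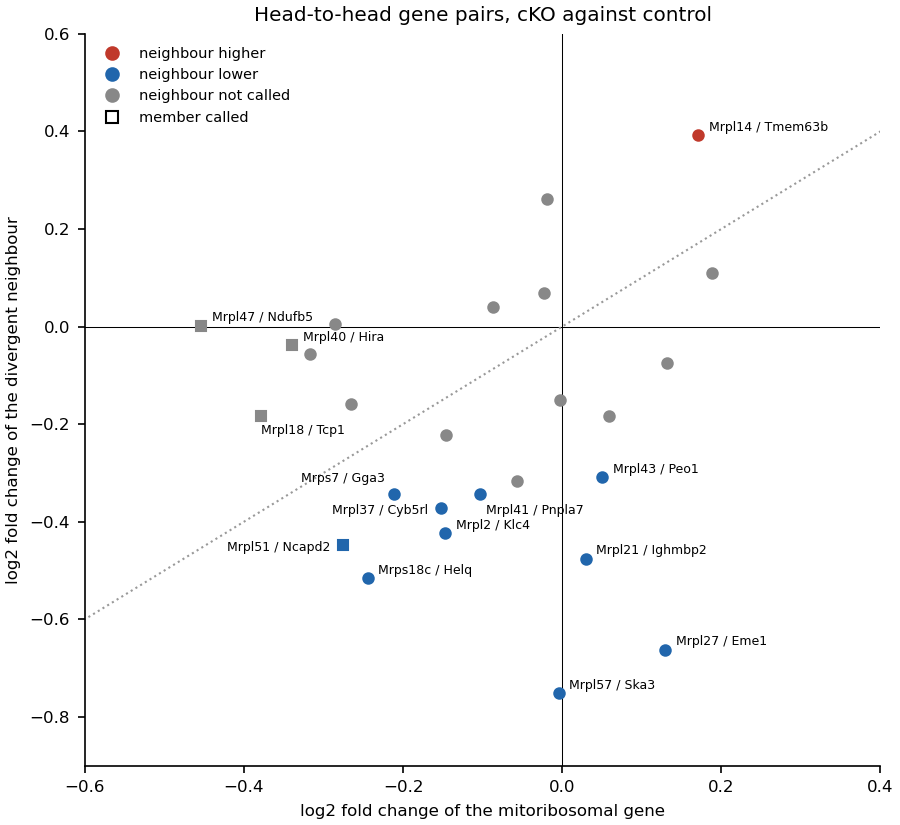
Log2 fold change of 26 mitoribosomal genes (horizontal) and of the gene starting on the opposite strand within 1000 bases (vertical), cKO against control. Squares mark called members and colours the call on the neighbour; the 10 neighbours called lower lie below the dotted line of equal change, as for Mrpl57 and Ska3.

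Over all RefSeq promoters (300 bases, 250 of them before the start), the 4 motifs were found in a larger share of mitoribosomal than of all promoters. The ETS motif was in 12 of 73 member promoters (16.4%) against 3.89% of 32851, the YY1 motif in 12 (16.4%) against 2.75%, and the NRF1 motif in 8 (11.0%) against 2.71%. The shorter SP1 motif was in 39 (53.4%) against 35.7%. By subunit, the NRF1 motif was in 1 of 27 small-subunit and 7 of 46 large-subunit promoters. These shares are descriptions without a test, and promoters of 1 gene or of a pair share sequence.

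The other genes of mitochondrial gene expression, in lists of known members, were also mostly not called. Over all 6 lists 3 genes rose and 6 fell. By list the share called ran from 0% to 17.6%. Of all genes tested 20.0% were called, 9.63% higher and 10.4% lower. Of 6 mitoribosomal proteins with other names 1 rose: Gadd45gip1, whose product belongs to the large subunit. It had 761, 958 and 849 counts in control and 1048, 1138 and 1042 in cKO libraries (log2 fold change 0.33, adjusted p = 0.0403). The call was lost when any 1 library other than control replicate 2 was left out (adjusted p from 0.0679 to 0.161). Of 26 assembly factors 1 fell and the median was -0.04. This was Mrm3, a methyltransferase of the large rRNA listed as Rnmtl1, with 444, 401 and 423 counts in control and 314, 312 and 286 in cKO libraries. The Rnmtl1 groups were well apart (log2 fold change -0.47, adjusted p = 0.0193), but the call was lost when control replicate 1 (adjusted p = 0.0558) or the third cKO library (adjusted p = 0.0727) was left out.

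Of 16 translation factors tested 1 fell and 1 rose. Tufm, the elongation factor that brings aminoacyl-tRNA to the ribosome, had 2578, 2296 and 2126 counts in control and 1852, 1939 and 1810 in cKO libraries (log2 fold change -0.32, adjusted p = 0.0263). Oxa1l, the insertase that receives new membrane proteins, had 3459, 3341 and 3584 counts in control and 4026, 4044 and 4341 in cKO libraries (log2 fold change 0.26, adjusted p = 0.0458). Neither gene's groups overlapped. The call on Tufm was lost without control replicate 1 or any 1 cKO library (adjusted p from 0.0566 to 0.0979), and that on Oxa1l without control replicate 2 or any 1 cKO library (adjusted p from 0.103 to 0.188), with edgeR (adjusted p = 0.0594) and with the replicate block (adjusted p = 0.0598).

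Of 17 genes for transcription, replication and RNA processing of the mitochondrial genome 3 fell, with a median of -0.12. Polrmt, the mitochondrial RNA polymerase, had 1027, 1211 and 1203 counts in control and 932, 916 and 858 in cKO libraries (log2 fold change -0.34, adjusted p = 0.0296). The helicase Twinkle, listed as Peo1, had 1021, 1065 and 986 against 846, 769 and 866 (log2 fold change -0.31, adjusted p = 0.0466). The tRNA-processing nuclease Elac2 had 2103, 2030 and 1585 against 1405, 1572 and 1387 (log2 fold change -0.38, adjusted p = 0.0199). All cKO values of these genes were below the controls, by a narrow margin for Elac2. Leaving out 1 library ended the call on Peo1 for each of the 6 libraries, that on Polrmt for each but control replicate 1, and that on Elac2 for each but control replicate 3 and cKO replicate 2 (adjusted p from 0.0522 to 0.204).

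The products of the mitochondrial genome itself, the rRNAs and the mRNAs translated by this ribosome, were not called with the deposited size factors. Limma called none of 15, none had an unadjusted p under 0.05, and edgeR and DESeq2 called none; the median log2 fold change was 0.29. The small rRNA mt-Rnr1 had 23014, 19759 and 37738 counts in control and 37964, 27916 and 32919 in cKO libraries, and mt-Rnr2, the large rRNA, had log2 fold change 0.33. Control replicate 3 was as high as the cKO libraries and control replicates 1 and 2 were lower. Without control replicate 3 limma called 9 of the 15 higher and the median was 0.61, whereas without control replicate 2 the median was 0.00. With the length and GC correction the rRNAs mt-Rnr1 and mt-Rnr2 were called higher, and with the replicate block added mt-Atp6, for a subunit of the ATP synthase, as well. All products together took 6.15%, 4.41% and 9.64% of counts in control and 7.95%, 6.39% and 7.93% in cKO libraries.

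Of 12 regulators of nuclear mitochondrial genes 1 fell and 1 rose. Pprc1, a coactivator related to PGC-1, had 4514, 4730 and 4088 counts in control and 3894, 3524 and 3233 in cKO libraries (log2 fold change -0.33, adjusted p = 0.0221). Mycn, a transcription factor of the Myc family, had 2326, 2518 and 2329 in control and 2837, 2940 and 2786 in cKO (log2 fold change 0.26, adjusted p = 0.0498). The groups did not overlap in either gene. The call on Pprc1 was lost when the second library of either group (adjusted p = 0.0734 each) or cKO replicate 3 (adjusted p = 0.135) was left out, and that on Mycn without any 1 library but control replicate 2 (adjusted p from 0.0764 to 0.186), with edgeR (adjusted p = 0.0523) and with the replicate block (adjusted p = 0.0623). Of the factors whose motifs were searched, Nrf1 (-0.21), the ETS factor Gabpa (-0.12) and Yy1 (-0.01) were not called. The gene for SP1 was in none of the lists, and its value is not given here.

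**Figure D4:**
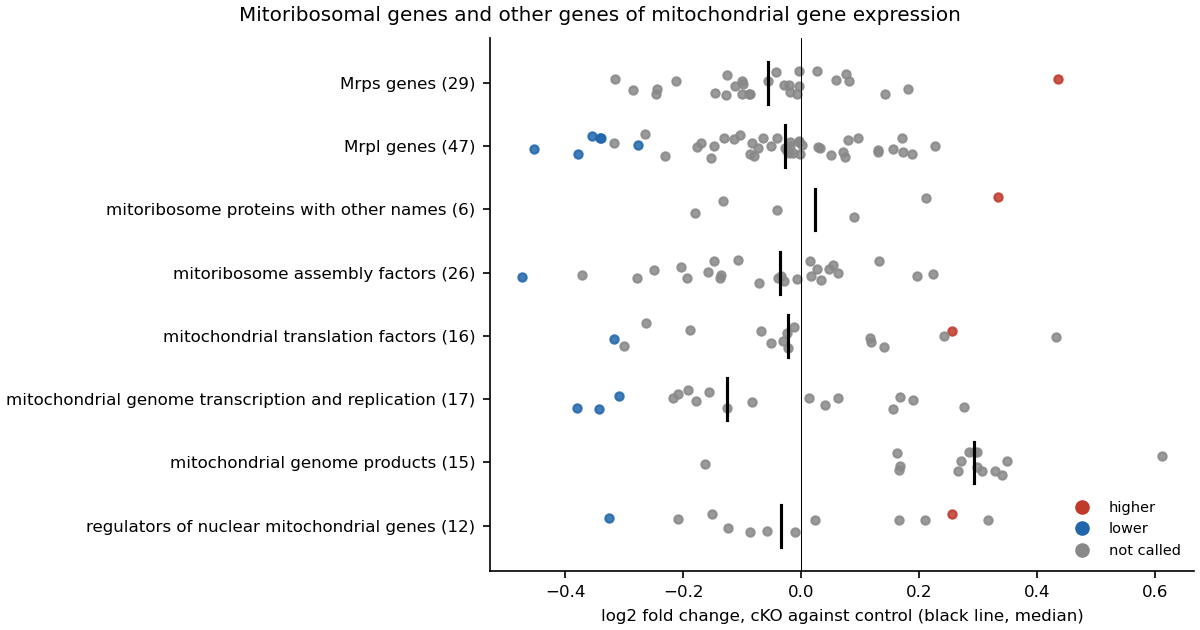
Log2 fold change, cKO against control, of every tested gene in the 2 subunits and 6 lists of mitochondrial gene expression (gene numbers in brackets), with the median as a black line and called genes in colour. Medians lie close to 0 except for the mitochondrial genome products at 0.29 and the transcription and replication list at -0.12.

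The cytosolic ribosomal protein genes are the like family for the ribosome of the cytosol. They gave 1 higher and 2 lower of 88 tested (3.41%, against 20.0% of all genes tested), with a median of -0.05. The difference between the families was not tested.

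How many members were called depended on what was taken as equal between libraries. Scaled to library totals, all genes tested had a median of -0.08 and 75.6% of their calls were lower instead of 51.9%. In that setting 13 members were lower (4 small, 9 large) and none higher. This was 17.1% of the members, against 18.8% of all genes tested. Scaled so that the 18 Sertoli markers had equal means, all genes had a median of -0.34 and 99.0% of calls were lower. 39 members (16 small, 23 large) were then lower, and Mrps34 was at 0.08 (adjusted p = 0.767). The share called was 51.3% of the members, against 33.1% of all genes tested, so here members were called more often than other genes. The subunit medians stayed close to the median of all genes under the same scaling. For the small and large subunit they were -0.14 and -0.11 with totals and -0.41 and -0.38 with Sertoli markers. With a correction for transcript length and GC content 40.8% of all calls were lower, 5 members were lower and 2 higher, Mrps34 and Mrpl36 (log2 fold change 0.25, adjusted p = 0.0303). This was 9.21% of the members, against 26.3% of all genes tested in that setting. The 6 genes that fell were called lower with library totals and with Sertoli markers alike. Both of these scalings moved all genes down, so this is no check of those calls. Gadd45gip1, Oxa1l and Mycn, called higher above, were at -0.02, -0.10 and -0.10 with the Sertoli scaling.

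**Figure D5:**
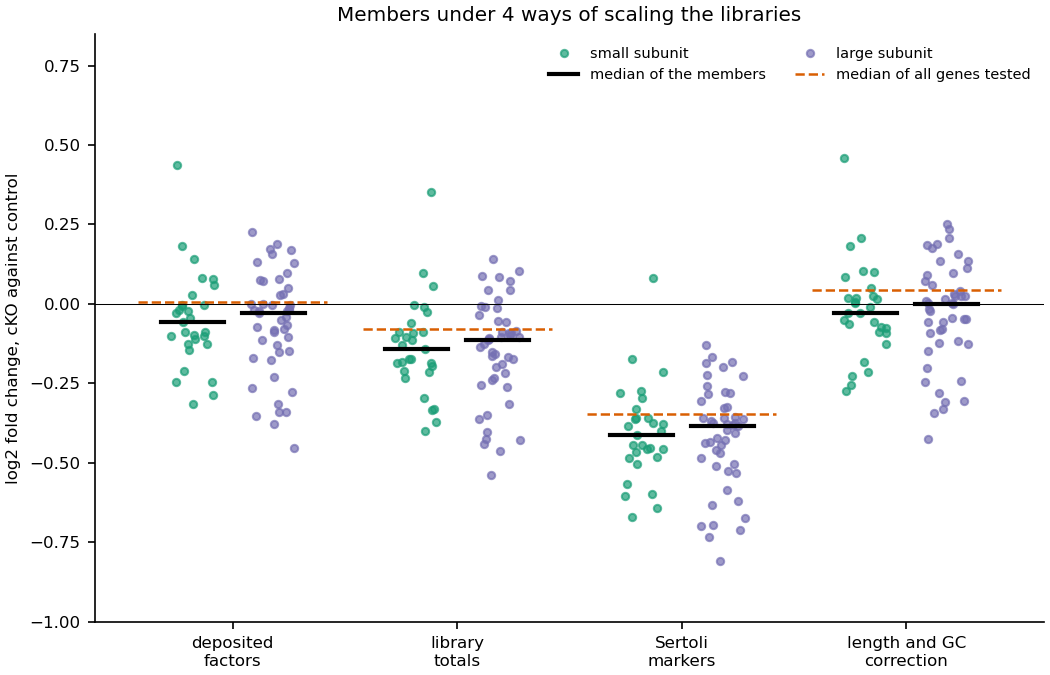
Log2 fold change of each of the 76 members under 4 ways of scaling the libraries, with medians of the members (black) and of all genes tested (dashed). The members shift with all genes, from a median near 0 with the deposited size factors to -0.41 and -0.38 with Sertoli markers.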

How the data were processed

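RNA-seq of whole testes (3 control, 3 cKO libraries) was read from 1 deposited table of 22219 gene symbols; groups and replicate numbers came from the sample titles. The authors deposited values that form a normalised signal: in each of the 6 columns all values were whole multiples of 1 step (tolerance 1e-06), so each is a read count divided by a size factor of 0.825 to 1.35. The table lists no gene with a total under 10 recovered reads. Of low recovered counts (1 to 10), 76.6% to 83.7% per library were even. StringTie 1.3.1 and RSEM are named, per the submitters' processing notes; which aligner, build, annotation and strand treatment was used is not given in the sources used here. No pair of libraries was a duplicate (chi-square per degree of freedom 10.0 or more).

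The test was limma 3.58.1 with a trend on log2(value + 2), 2-sided, without covariates, over the 17570 genes that passed filterByExpr (minimum count 10); 4649 were not tested. This scale understates changes of low genes. R 4.3.3 was used, with edgeR 4.0.16 and DESeq2 1.42.0 on the recovered reads as alternatives, beside 2 other scalings, 2 pseudocounts, no filter, a replicate block, a length and GC correction and leaving out each library. The fit was tested on simulated data. Replicate numbers did not pair the samples (correlations of same-numbered deviations -0.0379, -0.00235 and 0.0551).

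Members and lists were chosen with earlier results of these data known. Named members were all called ones, the 3 highest and the lowest per kb of each subunit, the 2 largest uncalled changes of each subunit and those of known special role. Of other lists the called genes were named, except for cell type markers, given as counts beside Hbb-bs and Hba-a1. Mrpl36, Mrpl48, Mrpl27, Mrpl57, Mrpl21, Mrps11, Mrps16 and Mrpl13 were named after their values were seen. The same holds for the regulators not called, the mitochondrial rRNAs, mt-Atp6 and the neighbouring genes. The split by bacterial origin was revised after values were seen, moving Mrpl47 and Mrpl55. Promoters came from RefSeq (67 members matched).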

Additional observations from a re-analysis of the deposited data

How the results depend on the processing

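For single named genes, 492 values in the alternatives stayed on the same side of the threshold, 74 lost a call and 19 gained one. In 3 a gene called in either setting changed sign. The 492 include any change of sign in a gene that was called in neither setting. The 3 sign changes of called genes were those of Gadd45gip1 (-0.022), Oxa1l (-0.10) and Mycn (-0.10) with Sertoli scaling. With library totals, small-subunit genes called were 0 higher and 4 lower, pathway-list genes 0 higher and 11 lower, all genes 806 higher, and the medians -0.14 (small) and -0.11 (large). With Sertoli scaling the counts were 0 higher and 16 lower in the small and 23 lower in the large subunit, 0 higher and 32 lower in the pathway lists, and 58 higher and 5758 lower over all genes, with medians of -0.41 and -0.38. The length and GC correction gave 1 large-subunit gene higher, 6 pathway genes higher and 2608 genes higher; together with the replicate block these were 1, 7 and 2604. edgeR, no filter and the replicate block each gave 1 pathway gene higher. The replicate block alone gave 1 higher and 6 lower members, 5 of the latter shared, with Mrpl46 in place of Mrpl51, and ended the calls on Oxa1l, Peo1 and Mycn; it changed no other call on a named gene. Leaving out 1 library gave 0 to 1 small-subunit gene higher and 0 to 2 lower, 2 to 7 large-subunit genes lower, 0 to 11 pathway genes higher (11 without control replicate 3) and 1 to 5 lower, 916 to 1764 genes higher in all, medians of -0.09 to -0.04 (small) and -0.08 to -0.029 (large), and -0.36 to -0.27 for Eif5. Fewer libraries leave fewer degrees of freedom; the cause of the other shifts was not tested. With 3 libraries a group and a median SE of 0.104, the smallest member change called was -0.28 on the log2 scale.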
